A study of Mus musculus with 24 samples.

Results

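Sterol regulatory element-binding proteins (SREBPs) are transcription factors that switch on the genes of cholesterol and fatty acid synthesis. The set described here holds 37 of those genes, out of 19937 tested. They came from a list of 38 symbols chosen for their role in the pathway, with earlier results of these data known. The list held 18 enzymes of sterol synthesis, 6 regulators and transporters, and 14 genes of fatty acid synthesis. Each gene was read from the probe set that carried its symbol alone, and where several did, from the brightest of them on average. Acat2, a sterol enzyme, shared its 1 probe set with another symbol and was not analysed here, which left 17 sterol enzymes. The samples were primary keratinocytes of strain C57/BL6, epidermal cells kept in culture, taken from wild-type or Ppar-beta null mice. Ppar-beta is the nuclear receptor encoded by Ppard. Cells were cultured for 2 days, then mock transduced or transduced for 48 hours with a retrovirus encoding activated Hras, a RAS oncogene. They received the vehicle DMSO or 1 uM GW0742, a synthetic Ppar-beta agonist, for 24 hours. The 8 groups of wild-type or null cells, mock or Hras, DMSO or GW0742, had 3 arrays each.

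SREBPs are held in the endoplasmic reticulum by Scap, a sterol sensor, and by the Insig proteins. When membrane sterol is low, Scap carries the SREBP to the Golgi, where proteases release the part that enters the nucleus. Insig1 is itself a target gene of SREBPs, which closes a feedback loop. Srebf2 is best known for driving sterol synthesis and Srebf1 for driving fatty acid synthesis, and in the epidermis both kinds of lipid go into the water barrier.

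The values are log2 expression from RMA, and differences are log2 differences ± standard error from a limma model of all 24 arrays, with p-values adjusted over all 19937 genes. A member is said to rise or fall only where that adjusted p was under 0.05. Labels do not say that arrays of a group came from separate cultures or animals, so p-values here measure array-to-array spread alone, and that spread may be technical. Ppard itself was lower in null cells in the 4 comparisons of genotype, with differences between -0.57 and -0.28 (adjusted p = 0.00194 or smaller), and whether its probe set lies in the deleted part is not stated. The keratinocyte markers Krt5 and Krt14 stood at a mean of 14.03 or above and 13.95 or above in all groups, so the labelled cell type was present. Of the 8 keratinocyte markers listed Krt15 was the lowest, with a mean of 8.22 over all arrays. The summed level of the 8 in wild-type DMSO cells was 71561 to 71919 in mock and 58852 to 62327 in Hras arrays. In null DMSO cells that sum was 72096 to 73204 in mock and 60812 to 62370 in Hras arrays. Its part in the Hras results was not tested. The summed level of 6 fibroblast markers was 5037 to 5614 in wild-type mock DMSO arrays and 2982 to 3074 in null mock DMSO arrays, and that of 4 adipocyte markers lay between 348 and 502 in all arrays. Arrays of null Hras cells with GW0742 varied the most, with a median standard deviation over all genes of 0.122 against 0.0647 to 0.0798 in the other groups.

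Promoter windows were looked at because most members moved together in several comparisons. RefSeq gave windows of 300 bases (250 before to 50 after a gene's start, GRCm38.p6) for 31 of the 38 listed genes, 40 windows in all. The core SREBP element TCACNCCAC, read on both strands, was in 2.5% of member windows and in 1.242% of all 32851 windows, and Hmgcs1 was the 1 member that held it. The looser TCANNCCA, which includes the core, was in 22.5% against 15.704%. SREBPs are known to work together with the factor NF-Y, which binds CCAAT: this motif was in 65% of member windows against 37.408%. The GC box GGGCGG was in 70% against 35.658%, and the E-box CACGTG in 17.5% against 7.15%. A PPAR element of the strict form, the hexamer AGGTCA as a direct repeat with 1 base between, was in 0% of member windows and 0.04% of all. These matches are letters in a window, not measured binding. The windows below, all 5′ to 3′ on the gene's own strand, belong to the member with the core element (Hmgcs1), to the members with the 2 highest GW0742 differences in wild-type mock cells (Insig1 and Idi1), and to Insig2, which moved apart from Insig1. Capitals mark the core element and CCAAT in Hmgcs1, CCAAT and the E-box in Insig1, and CCAAT in Idi1 and Insig2, each as read on either strand.
Hmgcs1, chr13:119690101-119690400, plus strand: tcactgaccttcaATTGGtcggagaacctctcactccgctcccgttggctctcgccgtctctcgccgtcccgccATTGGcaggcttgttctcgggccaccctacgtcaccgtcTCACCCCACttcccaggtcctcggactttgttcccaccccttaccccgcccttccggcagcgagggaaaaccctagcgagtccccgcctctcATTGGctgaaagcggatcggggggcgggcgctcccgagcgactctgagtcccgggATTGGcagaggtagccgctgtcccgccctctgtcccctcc
Insig1, chr5:28071162-28071461, plus strand: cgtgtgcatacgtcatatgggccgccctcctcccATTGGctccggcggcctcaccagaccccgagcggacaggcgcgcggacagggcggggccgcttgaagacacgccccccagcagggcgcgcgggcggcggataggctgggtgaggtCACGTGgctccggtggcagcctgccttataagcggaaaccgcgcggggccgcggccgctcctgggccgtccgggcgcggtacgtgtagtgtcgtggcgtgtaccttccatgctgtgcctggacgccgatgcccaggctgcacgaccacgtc
Idi1, chr13:8885356-8885655, plus strand: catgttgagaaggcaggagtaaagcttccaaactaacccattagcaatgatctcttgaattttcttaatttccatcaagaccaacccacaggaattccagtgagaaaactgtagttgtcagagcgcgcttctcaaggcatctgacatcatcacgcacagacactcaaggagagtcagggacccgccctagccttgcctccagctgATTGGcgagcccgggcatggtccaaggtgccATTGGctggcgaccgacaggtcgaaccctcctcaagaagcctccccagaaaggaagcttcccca
Insig2, chr1:121332540-121332839, minus strand, the window with the most CCAAT of 3 for this gene: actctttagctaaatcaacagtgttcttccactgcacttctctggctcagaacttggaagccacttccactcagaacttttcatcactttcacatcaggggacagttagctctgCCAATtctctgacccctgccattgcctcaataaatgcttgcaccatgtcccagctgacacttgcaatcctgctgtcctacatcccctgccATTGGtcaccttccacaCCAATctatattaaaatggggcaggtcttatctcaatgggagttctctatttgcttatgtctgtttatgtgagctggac

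The Hmgcs1 window held 4 CCAAT matches besides the core element, the Insig1 window 1 and an E-box, the Idi1 window 2 and the Insig2 window 3. The Insig2 window was picked for its CCAAT count, and the other Insig2 windows held 0 CCAAT matches. Insig1 and Insig2 values went in opposite directions with Hras, as given further on, and any link with CCAAT was not tested.

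**Figure D1:**
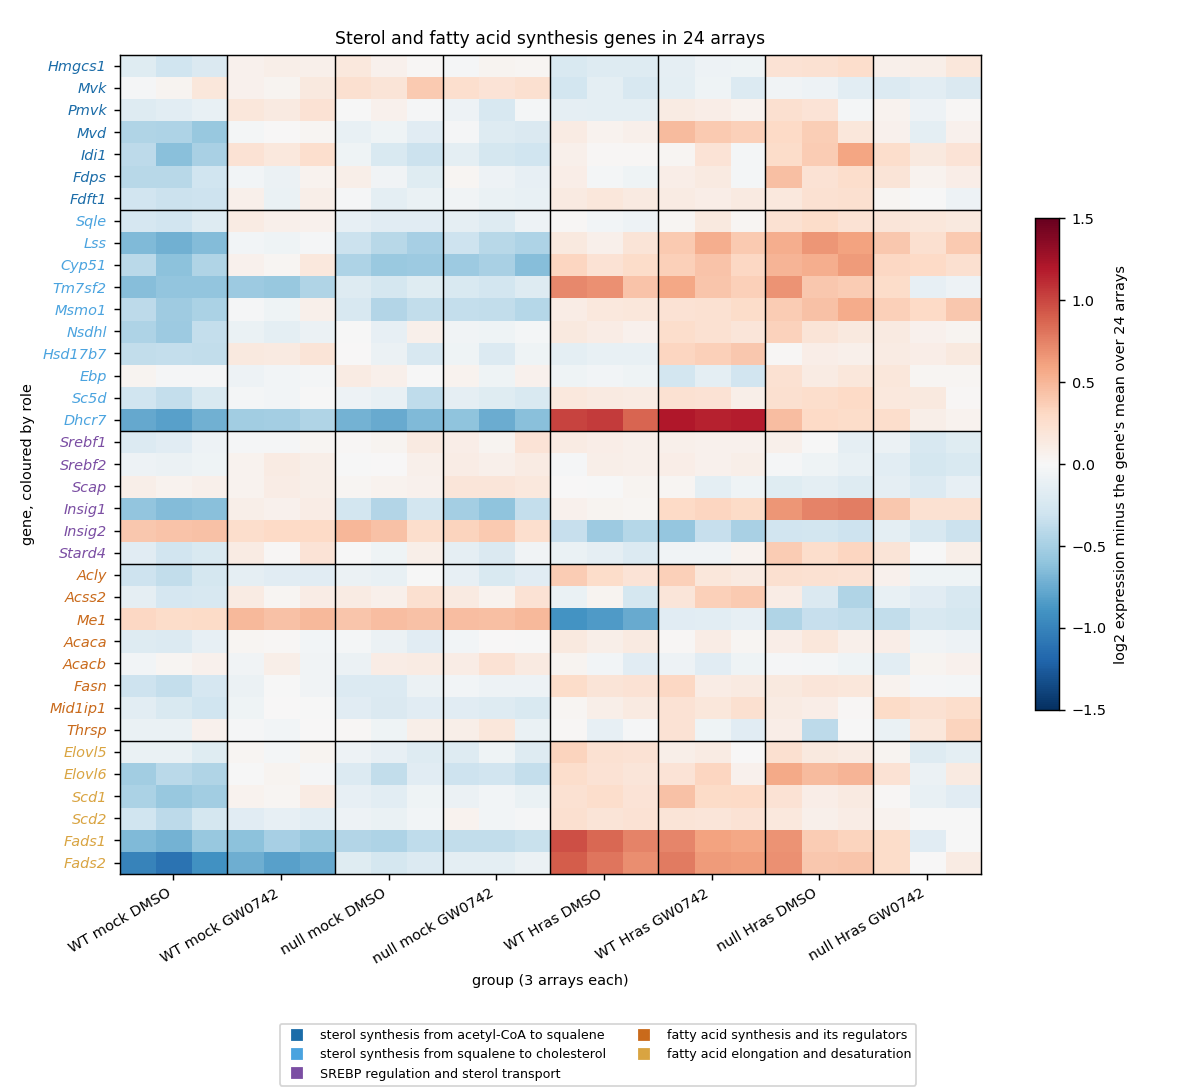
Log2 expression of the 37 members in each of the 24 arrays (columns, 3 per group), as the difference from each gene's own mean over all arrays; rows are coloured by role. The wild-type mock DMSO columns are mostly blue, Hras columns are mostly red, and Me1 and Insig2 run the other way.

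Across the groups the members were lowest in wild-type mock cells with DMSO. Their mean, each gene taken relative to its own mean over all arrays, was -0.30 ± 0.032 (SD, n = 3) there and -0.022 ± 0.021 in wild-type mock cells with GW0742. Null mock cells stood between them, at -0.096 ± 0.025 with DMSO and -0.099 ± 0.018 with GW0742. The Hras groups were higher, at 0.10 ± 0.027 in wild-type cells with DMSO, 0.18 ± 0.025 with GW0742, 0.19 ± 0.037 in null cells with DMSO and 0.040 ± 0.051 with GW0742. The wild-type mock DMSO arrays are the controls of 3 comparisons below. These are GW0742 among wild-type mock cells, genotype among mock DMSO cells, and Hras among wild-type DMSO cells. The same arrays enter the tests of the GW0742 effect between genotypes in mock cells and between Hras and mock in wild-type cells. They also enter the test of the Hras effect between genotypes in DMSO. All these comparisons and tests are therefore not independent of each other.

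**Figure D2:**
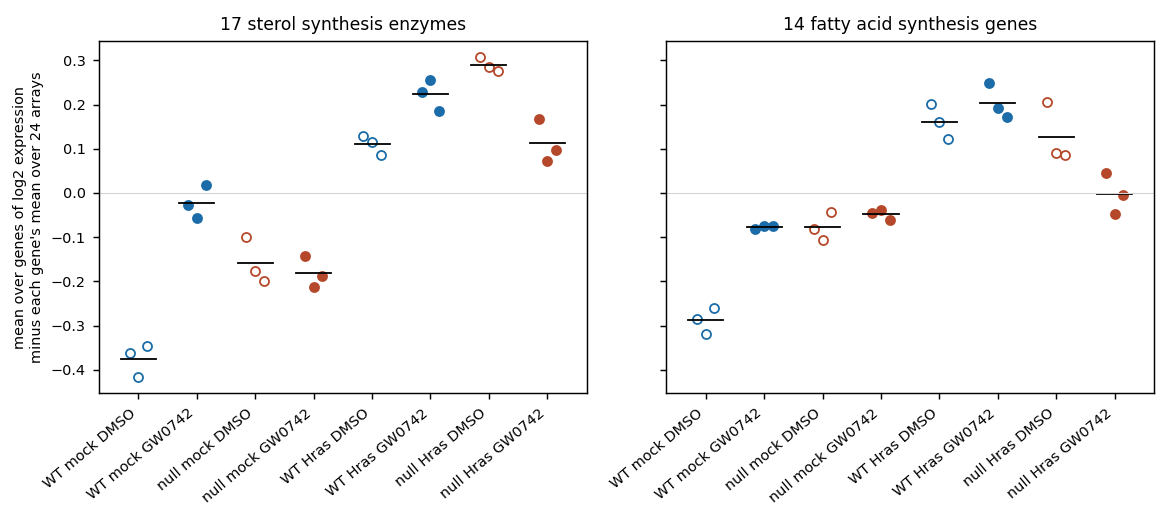
Mean of the 17 sterol synthesis enzymes (left) and of the 14 fatty acid synthesis genes (right) in each array, as log2 expression minus each gene's mean over the 24 arrays; points are arrays, bars are group means, blue is wild-type, red is null, filled is GW0742. The wild-type mock DMSO arrays are the lowest in both panels.

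With GW0742, genes along most of the sterol pathway rose in wild-type mock keratinocytes. Of the 37 members 23 rose and 0 fell, where 1.25% of all genes rose and 1.61% fell; the members' median difference was 0.26 and that of all genes was 0.0042. Among the 17 sterol enzymes 14 rose, among the 6 regulators and transporters 3 rose, and among the 14 fatty acid genes 6 rose. The rises were small, 1.64-fold at most.

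Insig1, the feedback inhibitor of SREBP release, read 10.29, 10.23 and 10.26 in the wild-type mock DMSO arrays and 10.98, 10.94 and 10.99 with GW0742. The 2 groups were far apart for their spread, and the difference was 0.71 ± 0.061, adjusted p = 1.31e-07. Stard4, which carries cholesterol between membranes, rose by 0.34 ± 0.063, adjusted p = 0.00269. Srebf2, the factor of the sterol branch, rose by 0.17 ± 0.045, adjusted p = 0.0485, a call lost when any 1 of the 6 arrays was left out (adjusted p = 0.0946 to 0.18). Srebf1, the factor of the fatty acid branch, differed by 0.15 ± 0.059, adjusted p = 0.24, Scap by 0.013 ± 0.044 and Insig2, the second feedback inhibitor, by -0.13 ± 0.068, adjusted p = 0.42. Insig2 had a lower value in each GW0742 array (10.81, 10.84 and 10.84) than in each DMSO array (10.95, 10.97 and 10.98), yet the difference did not pass.

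In the first part of the pathway, from acetyl-CoA to squalene, 6 of 7 enzymes rose. Idi1, which isomerises the isoprenoid building block, went from 10.67, 10.44 and 10.58 to 11.28, 11.22 and 11.32, a rise of 0.71 ± 0.081, adjusted p = 8.79e-06. A second probe set for Idi1 gave 0.44 for the same difference, so the size of the rise depended on the probe set. Mvd, which makes that building block, rose by 0.49 ± 0.067, adjusted p = 9.24e-05, and Hmgcs1, which makes the precursor of mevalonate, by 0.31 ± 0.046, adjusted p = 0.000268. Fdft1, the squalene synthase, rose by 0.33 ± 0.051, Pmvk, a kinase of the mevalonate steps, by 0.33 ± 0.064, and Fdps, which makes farnesyl diphosphate, by 0.35 ± 0.075. The call for Fdps was lost without wild-type mock DMSO array 2 (adjusted p = 0.0602) or GW0742 array 3 (adjusted p = 0.0654). Mvk, the first mevalonate kinase, was the exception, with a difference of 0.021 ± 0.060, adjusted p = 0.941.

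From squalene to cholesterol, 8 of 10 enzymes rose. Lss, which closes the first sterol ring system, read 10.62, 10.56 and 10.63 with DMSO and 11.24, 11.21 and 11.26 with GW0742, a rise of 0.63 ± 0.061, adjusted p = 7.67e-07. Hsd17b7, a reductase of sterol demethylation, read 11.66, 11.66 and 11.66 and then 12.17, 12.16 and 12.23, a rise of 0.53 ± 0.055, adjusted p = 2.64e-06. In both genes the GW0742 arrays lay above all DMSO arrays by several times the spread within a group. Cyp51, the lanosterol demethylase, rose by 0.57 ± 0.060, adjusted p = 2.59e-06, Msmo1, the sterol C4 methyl oxidase, by 0.46 ± 0.057, Nsdhl, which acts with it, by 0.34 ± 0.059 and Sqle, the squalene epoxidase, by 0.33 ± 0.047. Dhcr7, the last reductase of one route to cholesterol, rose by 0.28 ± 0.063, a call lost without wild-type mock DMSO array 1 (0.0529), DMSO array 2 (0.0959) or GW0742 array 3 (adjusted p = 0.0836). Sc5d, the sterol desaturase, rose by 0.26 ± 0.065, and lost the call without any array but wild-type mock DMSO array 3 (adjusted p = 0.0679 to 0.168). Tm7sf2 (0.087 ± 0.097, adjusted p = 0.806) and Ebp (-0.048 ± 0.053, adjusted p = 0.808), a sterol reductase and a sterol isomerase, did not pass.

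The fatty acid genes were a more mixed group. Scd1, the desaturase that makes monounsaturated fatty acids, went from 12.16, 12.07 and 12.12 to 12.70, 12.66 and 12.77, a rise of 0.59 ± 0.055, adjusted p = 5.56e-07. Elovl6, which elongates long-chain fatty acids, rose by 0.46 ± 0.072, adjusted p = 0.000427, with no overlap between the DMSO arrays (10.16, 10.28 and 10.24) and the GW0742 arrays (10.68, 10.72 and 10.67). Fasn, the fatty acid synthase, rose by 0.25 ± 0.053, a call lost without wild-type mock DMSO array 2 (0.066) or GW0742 array 2 (adjusted p = 0.0531). Mid1ip1, a regulator of acetyl-CoA carboxylase, rose by 0.21 ± 0.047, Scd2, a second desaturase, by 0.17 ± 0.044 and Me1, the malic enzyme that supplies NADPH, by 0.18 ± 0.047. Among the fatty acid genes these 3 lost their calls most often when 1 array was left out. The call for Me1 was lost without any 1 of the 6 arrays (adjusted p = 0.074 to 0.19), that for Scd2 without any but wild-type mock DMSO array 3 (0.0852 to 0.264), and that for Mid1ip1 without wild-type mock DMSO array 2 or 3 or GW0742 array 2 or 3 (adjusted p = 0.0631 to 0.108). The second probe set gave 0.086 for Mid1ip1 and 0.34 for Me1, and neither call was kept with the mean of both probe sets (adjusted p = 0.124 and 0.125). The polyunsaturated desaturases Fads1 (0.080 ± 0.092, adjusted p = 0.815) and Fads2 (0.24 ± 0.078, adjusted p = 0.13), the carboxylases Acaca (0.18 ± 0.052, adjusted p = 0.077) and Acacb, Acly, Acss2, Elovl5 and Thrsp did not pass.

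Without wild-type mock DMSO array 2 the count of members that rose was 15 in place of 23. Fibroblast and melanocyte markers passed in 0 of 6 cases each in this comparison by limma (2 of 6 in each list had an unadjusted p under 0.05). Their summed levels with DMSO and with GW0742 were 5037 to 5614 and 4567 to 5220 for 6 fibroblast markers, and 15059 to 15978 and 13611 to 14276 for 6 melanocyte markers, and their part in the result was not tested.

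**Figure D3:**
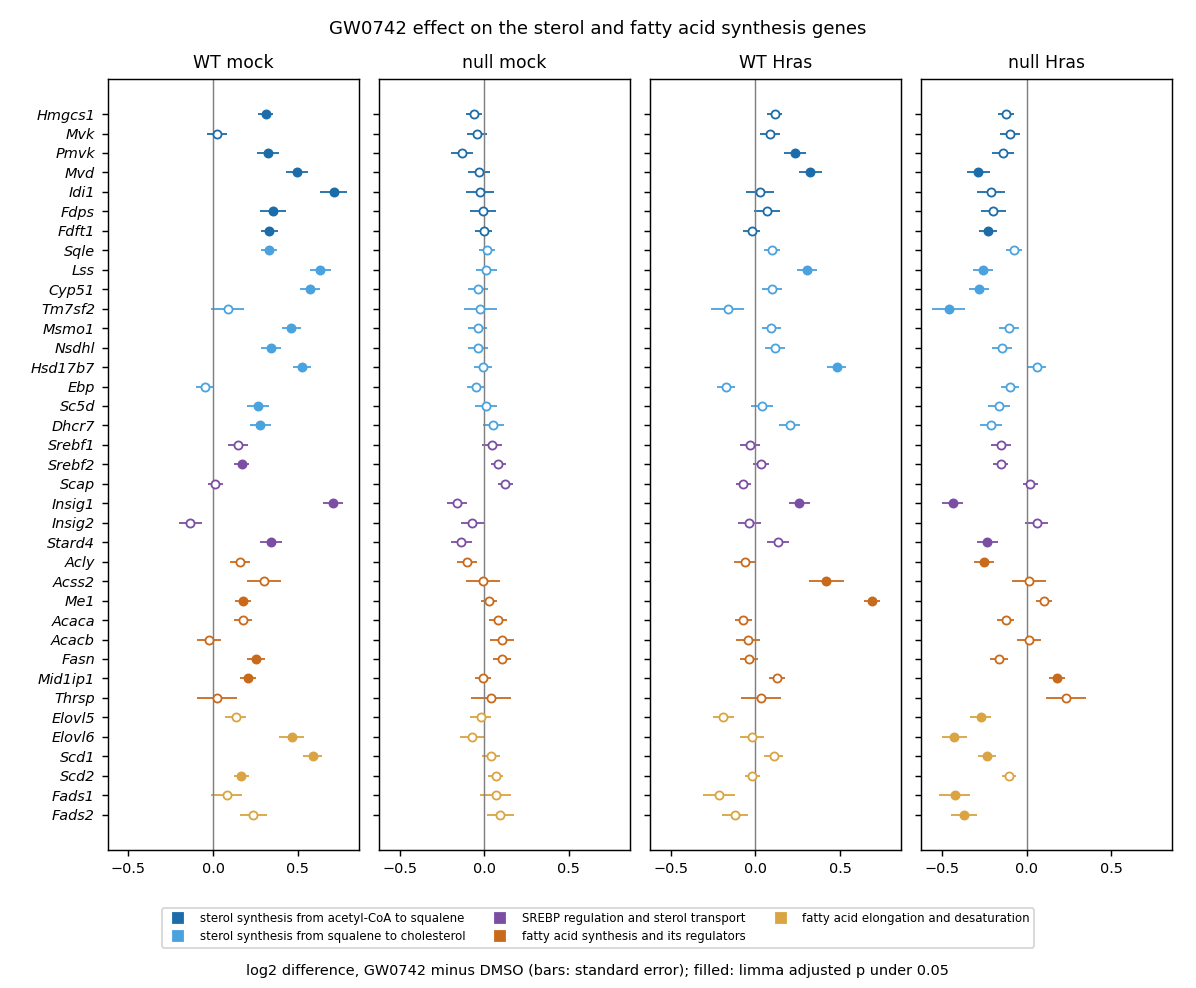
Log2 difference between GW0742 and DMSO for each of the 37 members in the 4 backgrounds, with the standard error as a bar; filled points passed at a limma adjusted p under 0.05, and colours give the role. Points lie right of 0 for 34 of 37 members in wild-type mock cells, cluster at 0 in null mock cells, and lie left of 0 for 29 of 37 members in null Hras cells.

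In null mock cells, GW0742 changed none of the 37 members by limma at the threshold, and 0 genes rose (0%) or fell (0%) among all those tested. At an unadjusted p under 0.05 there were 3 members. The members' differences ran from -0.16 to 0.12, with a median of -0.0076, and their 95% intervals together spanned -0.29 to 0.28. Insig1 read 10.61, 10.44 and 10.60 with DMSO and 10.37, 10.28 and 10.52 with GW0742, and the 2 groups overlapped. Idi1 differed by -0.024 (95% interval -0.19 to 0.15), Lss by 0.012 (-0.11 to 0.14) and Scd1 by 0.039 (-0.075 to 0.15), against rises of 0.71, 0.63 and 0.59 in wild-type mock cells.

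The difference between the genotypes was tested directly. Among mock cells the effect of GW0742 on 15 members was lower in the null genotype and on 0 higher, where the same held for 0.562% and 0.286% of all genes. Of the sterol enzymes 11 of 17 passed, of the regulators and transporters Insig1 and Stard4, and of the fatty acid genes Scd1 and Elovl6. The difference was -0.87 ± 0.086, adjusted p = 1.92e-06 for Insig1, -0.74 ± 0.11, adjusted p = 0.000954 for Idi1, -0.62 ± 0.086, adjusted p = 0.000271 for Lss, -0.61 ± 0.084, adjusted p = 0.000271 for Cyp51 and -0.55 ± 0.077, adjusted p = 0.000332 for Scd1. Hsd17b7 (-0.53 ± 0.078), Mvd (-0.53 ± 0.095), Msmo1 (-0.50 ± 0.081) and Hmgcs1 (-0.37 ± 0.065) followed. Nsdhl, Fdft1, Sqle and Pmvk passed here but lost the call without 1 array: Nsdhl for 9 of the 12 arrays (adjusted p = 0.0622 to 0.118; all but wild-type mock DMSO array 3, wild-type mock GW0742 array 2 and null mock DMSO array 2), Fdft1 for 7 (0.0589 to 0.0965; wild-type mock DMSO arrays 2 and 3, wild-type mock GW0742 arrays 1 and 3, null mock DMSO array 1, null mock GW0742 arrays 2 and 3), Sqle for 5 (0.0545 to 0.0804; wild-type mock DMSO arrays 1 and 2, wild-type mock GW0742 array 1, null mock DMSO array 1, null mock GW0742 array 2) and Pmvk for null mock GW0742 array 2 (0.0501). For Fdps, Sc5d, Dhcr7, Srebf2, Fasn, Scd2, Me1 and Mid1ip1, which had risen in wild-type mock cells, the difference between the genotypes did not pass.

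In wild-type cells with Hras, 7 members rose with GW0742 and 0 fell, where 4.46% of all genes rose and 1.65% fell, and the members' median difference was 0.042. Of the 37 members 15 had an unadjusted p under 0.05. In some refits, given at the end, 1 or 2 members fell. The 7 were 4 sterol enzymes (Hsd17b7, Mvd, Lss and Pmvk), Insig1, and the fatty acid genes Me1 and Acss2. Hsd17b7 read 11.88, 11.91 and 11.92 with DMSO and 12.35, 12.38 and 12.43 with GW0742, a rise of 0.48 ± 0.055, adjusted p = 3.53e-06, against 0.53 in mock cells. Mvd rose by 0.32 ± 0.067, adjusted p = 0.00332, Lss by 0.31 ± 0.061, adjusted p = 0.00219 and Insig1 by 0.26 ± 0.061, adjusted p = 0.00918. Insig1 read 10.95, 10.92 and 10.91 and then 11.18, 11.21 and 11.17, so its groups did not overlap although the rise was smaller than in mock cells. Acss2, which makes acetyl-CoA from acetate, rose by 0.42 ± 0.10, adjusted p = 0.0122, a call lost without wild-type Hras DMSO array 3 (0.0792) or GW0742 array 2 (0.0527) or 3 (adjusted p = 0.0745). Pmvk rose by 0.23 ± 0.064, adjusted p = 0.0329 and lost the call without any 1 of the 6 arrays (adjusted p = 0.061 to 0.108). Differentiation markers moved with this comparison, with 3 of 8 higher and 1 lower and sums of 18236 to 20862 and 25113 to 26790. Of 6 leukocyte markers 1 rose and 0 fell (1108 to 1262 and 1392 to 1505), and the part of either list in the result was not tested.

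Me1 had the highest GW0742 difference among the members in these cells. It read 10.26, 10.30 and 10.40 with DMSO and a mean of 11.01 ± 0.029 (SD, n = 3) with GW0742, with no overlap, a rise of 0.69 ± 0.047, adjusted p = 1.83e-09, or 1.61-fold, against 0.18 in mock cells. A second probe set for Me1 gave 0.57 in Hras cells and 0.34 in mock cells. The difference of the GW0742 effect between Hras and mock cells was 0.51 ± 0.067, adjusted p = 0.000108 for Me1, and it did not pass with the mean of both probe sets (adjusted p = 0.125).

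**Figure D4:**
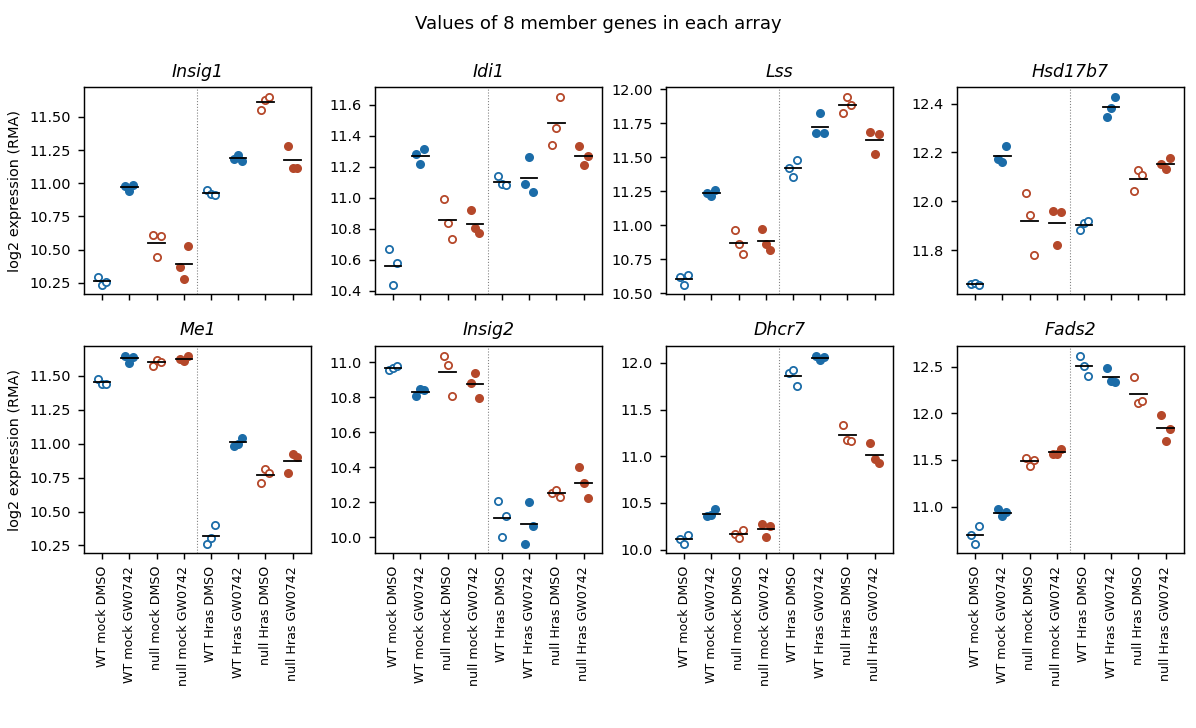
Log2 expression of 8 members in each array, by group; points are arrays, bars are group means, blue is wild-type, red is null, filled is GW0742, and the dotted line divides mock from Hras. GW0742 arrays lie above DMSO arrays in wild-type mock cells for Insig1, Idi1, Lss and Hsd17b7, and in wild-type Hras cells Me1 goes from a mean of 10.32 to 11.01.

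There were 9 members with a smaller GW0742 effect with Hras than without in wild-type cells by the test of that difference (0.421% of all genes), and Me1 was the 1 member with a larger effect (2.05% of all genes). They were Idi1 (-0.69 ± 0.11, adjusted p = 0.00141), Scd1 (-0.48 ± 0.077, adjusted p = 0.00103), Cyp51 (-0.48 ± 0.084, adjusted p = 0.00221), Insig1 (-0.45 ± 0.086, adjusted p = 0.00464), Elovl6 (-0.48 ± 0.10), Msmo1 (-0.37 ± 0.081), Fdft1 (-0.35 ± 0.073), Lss (-0.33 ± 0.086) and Fasn (-0.29 ± 0.075). Scd1, for example, read 12.87, 12.90 and 12.85 with Hras and DMSO and 13.08, 12.92 and 12.94 with Hras and GW0742, and these arrays all lay above the mock arrays of either ligand. For Idi1 the second probe set gave a GW0742 difference of 0.097 with Hras and 0.44 without, closer to each other than on the probe set used (0.026 and 0.71). On the probe set used Idi1 read 11.14, 11.09 and 11.09 with Hras and DMSO, then 11.09, 11.27 and 11.04 with Hras and GW0742, and the groups overlapped. The calls for Lss and Fasn were lost without any 1 of 10 of the 12 arrays: for Lss all but wild-type Hras DMSO array 2 and wild-type Hras GW0742 array 2 (adjusted p = 0.0694 to 0.134), and for Fasn all but wild-type mock DMSO array 3 and wild-type Hras GW0742 array 1 (0.0517 to 0.129). The call for Msmo1 was lost without wild-type mock DMSO array 2 (0.0524) or wild-type mock GW0742 array 3 (adjusted p = 0.0519).

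In null cells with Hras, most of the members that passed fell with GW0742. There were 13 that fell and 1 that rose, where 1.51% of all genes fell and 3.51% rose, and the median difference was -0.15. Insig1 read 11.55, 11.62 and 11.65 with DMSO and 11.28, 11.12 and 11.11 with GW0742, a difference of -0.44 ± 0.061, adjusted p = 0.00019. Elovl6 (-0.43 ± 0.072, adjusted p = 0.00109) and Cyp51 (-0.28 ± 0.060, adjusted p = 0.00664) fell too, and these 3 kept their calls whichever array was left out. Tm7sf2 (-0.46 ± 0.097, adjusted p = 0.00601), Fads1 (-0.43 ± 0.092, adjusted p = 0.00722) and Fads2 (-0.37 ± 0.078, adjusted p = 0.00643) fell. Fads2 read 12.39, 12.11 and 12.13 and then 11.98, 11.71 and 11.83, with the arrays of each group well spread but not overlapping between the groups. The calls of these 3 were lost without null Hras DMSO array 1 (adjusted p = 0.0524, 0.0613 and 0.0545) and without null Hras GW0742 array 2 (0.0636, 0.0799 and 0.0685).

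The other members that fell in null Hras cells were Mvd, Fdft1, Lss, Stard4, Acly, Elovl5 and Scd1, with differences between -0.28 and -0.23. Each lost its call without certain arrays: Mvd without null Hras DMSO array 1 or 2 or null Hras GW0742 array 2 (adjusted p = 0.0576 to 0.133), Fdft1 without null Hras GW0742 array 3 (adjusted p = 0.057), Lss without null Hras DMSO array 2 or null Hras GW0742 array 2 (adjusted p = 0.0691 to 0.123), Stard4 without null Hras DMSO array 1 or 3 or null Hras GW0742 array 2 or 3 (adjusted p = 0.0781 to 0.227), Acly without null Hras DMSO array 1 or null Hras GW0742 array 2 or 3 (adjusted p = 0.0553 to 0.0904), Elovl5 without null Hras DMSO array 1 or null Hras GW0742 array 2 or 3 (adjusted p = 0.0509 to 0.0988) and Scd1 without null Hras DMSO array 1 or null Hras GW0742 array 2 or 3 (adjusted p = 0.0732 to 0.0787). Mid1ip1 rose by 0.18 ± 0.047, adjusted p = 0.0265 and lost the call without null Hras DMSO array 2 or 3 or null Hras GW0742 array 2 or 3 (adjusted p = 0.0533 to 0.115), and its second probe set gave 0.016. The count of members that passed was 6 without null Hras DMSO array 1, 4 without null Hras GW0742 array 2 and 8 without null Hras GW0742 array 3, in place of 14. When the model was fitted to these 6 arrays alone, 0 members passed in limma, with an adjusted p of 0.102 for Insig1 and 0.161 for Elovl6, and 27 members had an unadjusted p under 0.05 in the model of all arrays. Melanocyte markers moved with this comparison: 5 of 6 rose, and their summed level was 6629 to 7291 with DMSO and 8430 to 10581 with GW0742. Of 8 differentiation markers 4 rose, with sums of 19981 to 22771 and 25786 to 29528. Of 6 leukocyte markers 1 rose and 0 fell, with sums of 1276 to 1495 and 1763 to 2204. Their part in the result was not tested. In RNA of whole cultures, fewer cells of a type and less RNA per cell cannot be told apart.

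With Hras, too, the GW0742 effect was tested for a difference between the genotypes. It was lower in null cells for 11 members and higher for 0, where the same held for 1.21% and 0.517% of all genes. Insig1 (-0.70 ± 0.086, adjusted p = 3.89e-05), Mvd (-0.61 ± 0.095, adjusted p = 0.000761), Me1 (-0.58 ± 0.067, adjusted p = 1.4e-05), Lss (-0.56 ± 0.086, adjusted p = 0.000573) and Hsd17b7 (-0.42 ± 0.078, adjusted p = 0.00453) kept the call whichever array was left out. Me1 lost it with the mean of both probe sets (adjusted p = 0.0518). The call was lost for Dhcr7 without wild-type Hras DMSO array 3 or null Hras GW0742 array 2 or 3 (adjusted p = 0.0513 to 0.0564), for Cyp51 without wild-type Hras DMSO array 2 or wild-type Hras GW0742 array 2 or null Hras DMSO array 3 or null Hras GW0742 array 3 (adjusted p = 0.0572 to 0.0693) and for Scd1 without wild-type Hras DMSO array 3 or wild-type Hras GW0742 array 1 or null Hras DMSO array 1 or null Hras GW0742 array 2 or 3 (adjusted p = 0.0574 to 0.0721). Pmvk, Stard4 and Elovl6 lost it without any 1 of 10 of the 12 arrays (adjusted p = 0.0564 to 0.119, 0.051 to 0.125 and 0.0594 to 0.136); the arrays that kept it were null Hras DMSO array 3 and null Hras GW0742 array 1 for Pmvk, wild-type Hras DMSO array 1 and null Hras GW0742 array 1 for Stard4, and wild-type Hras GW0742 array 3 and null Hras GW0742 array 1 for Elovl6. The count was 7 without wild-type Hras DMSO array 2, wild-type Hras GW0742 array 1 or 2, or null Hras DMSO array 1, 6 without wild-type Hras DMSO array 3 or null Hras GW0742 array 2, and 5 without null Hras GW0742 array 3. Among the 11, Hsd17b7, Pmvk and Me1 rose in wild-type and did not pass in null Hras cells, and Insig1, Mvd and Lss rose in wild-type and fell in null cells. Cyp51, Stard4, Elovl6 and Scd1 fell in null cells without a rise that passed in wild-type cells. Elovl6, for example, had means of 10.90 and 10.88 in wild-type and 11.20 and 10.77 in null Hras cells (DMSO, then GW0742). Dhcr7 passed in neither genotype.

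Between the genotypes, many members were higher in null cells under mock transduction and DMSO. In mock DMSO cells 18 were higher and 0 lower in null than in wild-type, where 4.89% of all genes were higher and 5.53% lower, and the median difference was 0.22. Of the sterol enzymes 10 of 17 passed, of the regulators and transporters 3 of 6 and of the fatty acid genes 5 of 14. Fads2, the desaturase that starts polyunsaturated fatty acid synthesis, read 10.70, 10.60 and 10.80 in wild-type and 11.52, 11.44 and 11.50 in null arrays, a difference of 0.79 ± 0.078, adjusted p = 5.24e-07, or 1.73-fold. Nsdhl (0.44 ± 0.059, adjusted p = 2.76e-05), Scd1 (0.40 ± 0.055, adjusted p = 2.85e-05), Mvd (0.38 ± 0.067, adjusted p = 0.000504), Hmgcs1 (0.31 ± 0.046, adjusted p = 7.39e-05) and Insig1 (0.29 ± 0.061, adjusted p = 0.00261) were higher too, and all kept the call whichever array was left out. Hmgcs1 read 11.33, 11.22 and 11.30 in wild-type and 11.68, 11.59 and 11.53 in null arrays, with no overlap. Fibroblast markers moved with this comparison: 5 of 6 were lower in null cells, with Col1a1 at -0.87 ± 0.074. Of 6 melanocyte markers 3 were lower, with summed levels of 15059 to 15978 and 12404 to 12801 in wild-type and null arrays. Of 8 differentiation markers 3 were lower and 1 higher (47361 to 47858 and 45060 to 47473), and of 6 leukocyte markers Lyz2 was higher (1330 to 1440 and 1631 to 1746). What part these markers had in the result was not tested.

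Srebf1 (0.22 ± 0.059, adjusted p = 0.0177) passed as well, and lost the call without wild-type mock DMSO array 1 (0.0973) or 2 (0.0684) or null mock DMSO array 3 (adjusted p = 0.101). Idi1 (0.29 ± 0.081, adjusted p = 0.0209) lost it without wild-type mock DMSO array 2 (0.129) or null mock DMSO array 1 (0.12) or 2 (0.0505), and its second probe set gave 0.11. The other members that were higher were Tm7sf2, Scd2, Fdft1, Fdps, Lss, Hsd17b7, Mvk, Stard4, Acly and Acss2, with differences of 0.22 to 0.40. Calls were lost for Mvk without wild-type mock DMSO array 1 or 2 or null mock DMSO array 3 (adjusted p = 0.077 to 0.143), Stard4 without wild-type mock DMSO array 2 or 3 or null mock DMSO array 3 (adjusted p = 0.0585 to 0.12), Acly without wild-type mock DMSO array 2 or null mock DMSO array 3 (adjusted p = 0.0571 to 0.0578) and Acss2 without wild-type mock DMSO array 2 or 3 or null mock DMSO array 1 or 3 (adjusted p = 0.0523 to 0.12). Cyp51 (-0.026 ± 0.060, adjusted p = 0.856) and Sqle (0.093 ± 0.047, adjusted p = 0.257), which GW0742 raised in wild-type mock cells, did not pass here.

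With GW0742, 7 of 17 sterol enzymes were lower in null than in wild-type mock cells and 1 was higher. Over all members 11 were lower and 3 higher, where 10.9% of all genes were lower and 11.1% higher. Cyp51 was lower, with a difference of -0.64 ± 0.060, adjusted p = 1.14e-07. It read 10.65, 10.63 and 10.75 in wild-type and 10.05, 10.11 and 9.96 in null arrays. Insig1 (-0.58 ± 0.061, adjusted p = 4.89e-07), Idi1 (-0.44 ± 0.081, adjusted p = 0.000367), Msmo1 (-0.38 ± 0.057, adjusted p = 3.72e-05) and Lss (-0.36 ± 0.061, adjusted p = 0.000163) were lower too, as were Hsd17b7, Sqle, Pmvk, Elovl6, Stard4 and Mid1ip1. Fads2 was still higher in null cells, by 0.64 ± 0.078, adjusted p = 3.4e-06. Scd2 (0.15 ± 0.044, adjusted p = 0.0195) and Tm7sf2 (0.29 ± 0.097, adjusted p = 0.0365) were the other higher members. The call for Tm7sf2 was lost without any array but wild-type mock GW0742 array 3 (adjusted p = 0.0582 to 0.113), and that for Scd2 without wild-type mock GW0742 array 1 (0.0685) or 3 (0.0646) or null mock GW0742 array 1 (adjusted p = 0.0968). Mid1ip1 was lower on the probe set used (-0.17 ± 0.047), but its second probe set gave 0.018, and the call was lost with the mean of both (adjusted p = 0.287). Cell markers moved with this comparison too. Of 6 fibroblast markers 4 were lower in null cells, with summed levels of 4567 to 5220 and 3116 to 3264 in wild-type and null arrays. Of 6 melanocyte markers 1 was lower (13611 to 14276 and 12272 to 12635), of 8 differentiation markers 4 were lower and 1 higher (47054 to 48410 and 43130 to 46248), and of 6 leukocyte markers Lyz2 was higher (1275 to 1358 and 1742 to 1782), and their part in the result was not tested.

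With Hras and DMSO, 15 members were higher in null than in wild-type cells and 4 lower, where 10.1% of all genes were higher and 9.32% lower. The members that were higher were 11 sterol enzymes, Insig1, Stard4, Me1 and Elovl6. Calls were lost for Mvd without wild-type Hras DMSO array 1 or 2 or 3 or null Hras DMSO array 1 or 2 (adjusted p = 0.0635 to 0.204) and Hsd17b7 without wild-type Hras DMSO array 1 or null Hras DMSO array 2 or 3 (adjusted p = 0.0562 to 0.0766). Insig1 read 10.95, 10.92 and 10.91 in wild-type and 11.55, 11.62 and 11.65 in null Hras arrays, a difference of 0.68 ± 0.061, adjusted p = 6.67e-08, or 1.6-fold. Lss (0.47 ± 0.061, adjusted p = 9.17e-06), Stard4 (0.47 ± 0.063, adjusted p = 1.33e-05), Me1 (0.45 ± 0.047, adjusted p = 7.41e-07) and Hmgcs1 (0.44 ± 0.046, adjusted p = 7.41e-07) were higher. Dhcr7 was lower, with a difference of -0.63 ± 0.063, adjusted p = 3.56e-07, and read 11.89, 11.93 and 11.75 in wild-type and 11.34, 11.17 and 11.16 in null arrays. Fads1 (-0.39 ± 0.092, adjusted p = 0.00362), Fads2 (-0.30 ± 0.078, adjusted p = 0.00817) and Scap (-0.19 ± 0.044, adjusted p = 0.00443) were lower as well. Fads2 lost the call without wild-type Hras DMSO array 1 (0.0572) or null Hras DMSO array 2 (adjusted p = 0.0586). Dhcr7 thus went against the mean of the 17 sterol enzymes, each taken relative to its own mean over all arrays. That mean was 0.11 ± 0.022 (SD, n = 3) in wild-type and 0.29 ± 0.016 in null Hras DMSO arrays. The Fads genes did not go against the mean of the 14 fatty acid genes. The fatty acid mean was 0.16 ± 0.039 in wild-type and 0.13 ± 0.068 in null Hras DMSO arrays, and the arrays overlapped. Fibroblast markers were higher in null cells for 3 of 6 here, with summed levels of 1648 to 1786 and 1768 to 1976. Differentiation markers were higher for 4 of 8, with sums of 18236 to 20862 and 19981 to 22771. The summed level of 5 sebocyte markers was 1725 to 1930 in wild-type and 1172 to 1425 in null arrays. That of 6 leukocyte markers was 1108 to 1262 and 1276 to 1495. The part of these lists in the result was not tested.

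With Hras and GW0742, 14 members were lower in null cells and 3 higher, where 11.2% of all genes were lower and 9.91% higher. Dhcr7 was lower by the most among members, -1.05 ± 0.063, adjusted p = 1.44e-10, or 2.06-fold. Fads1 (-0.60 ± 0.092, adjusted p = 4.85e-05), Fads2 (-0.55 ± 0.078, adjusted p = 2.14e-05), Scd1 (-0.43 ± 0.055, adjusted p = 5.33e-06), Mvd (-0.41 ± 0.067, adjusted p = 0.000103) and Srebf2 (-0.30 ± 0.045, adjusted p = 3.87e-05) were lower too. Ebp (0.31 ± 0.053, adjusted p = 0.000182) and Hmgcs1 (0.20 ± 0.046, adjusted p = 0.00303) were higher. Insig2 (0.23 ± 0.068, adjusted p = 0.0168) was the third higher member, and lost the call without wild-type Hras GW0742 array 1 (0.104) or 3 (0.0502) or null Hras GW0742 array 1 (adjusted p = 0.0562). Of these 17 members 8 passed when only the 6 arrays compared were fitted, and Hmgcs1 was not among them (adjusted p = 0.125). Differentiation markers were higher in null cells for 5 of 8 (25113 to 26790 and 25786 to 29528 in wild-type and null arrays), melanocyte markers for 3 of 6 (7198 to 8015 and 8430 to 10581) and leukocyte markers for 1 of 6 (1392 to 1505 and 1763 to 2204). The summed level of 5 sebocyte markers was 1785 to 2068 in wild-type and 1215 to 1436 in null arrays. The part of these lists in the result was not tested.

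Most members rose with Hras in wild-type cells, 4 of them by more than 2-fold. With DMSO 26 rose and 3 fell, where 18.4% of all genes rose and 19% fell, with a members' median of 0.38. Of the sterol enzymes 13 of 17 rose and of the fatty acid genes 10 of 14. All 6 genes of fatty acid elongation and desaturation rose.

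The highest rises were in Fads2, Dhcr7, Fads1 and Tm7sf2. Fads2 read 10.70, 10.60 and 10.80 in mock and 12.62, 12.51 and 12.40 in Hras arrays, a rise of 1.81 ± 0.078, adjusted p = 5.37e-14, or 3.51-fold. Dhcr7 read 10.11, 10.06 and 10.15 and then 11.89, 11.93 and 11.75, a rise of 1.75 ± 0.063, adjusted p = 3.26e-15, or 3.36-fold. Both changes were many times the spread within groups. Fads1 rose 2.82-fold (adjusted p = 1.46e-11) and Tm7sf2 by 1.22 ± 0.097, adjusted p = 8.58e-10. Lss (0.82 ± 0.061), Cyp51 (0.76 ± 0.060), Scd1 (0.75 ± 0.055), Elovl6 (0.67 ± 0.072), Insig1 (0.67 ± 0.061), Acly, the citrate lyase that supplies acetyl-CoA (0.60 ± 0.060), and Fasn (0.53 ± 0.053) rose too. Srebf1 rose by 0.25 ± 0.059, adjusted p = 0.00158, and Srebf2 by 0.13 ± 0.045, adjusted p = 0.03, a call lost without any array but wild-type Hras DMSO array 1 (adjusted p = 0.0545 to 0.123). Hmgcs1, the first enzyme of the sterol branch among the members measured, differed by 0.028 ± 0.046 (adjusted p = 0.709).

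The 3 members that fell were Me1, Insig2 and Mvk. Me1 read 11.47, 11.44 and 11.44 in mock and 10.26, 10.30 and 10.40 in Hras arrays, a difference of -1.13 ± 0.047, adjusted p = 2.99e-14, or 2.19-fold lower, and its second probe set gave -0.99. Insig2 read 10.95, 10.97 and 10.98 in mock arrays and a mean of 10.11 ± 0.10 (SD, n = 3) in Hras arrays, a difference of -0.86 ± 0.068, adjusted p = 9.64e-10. Thus the 2 Insig genes moved in opposite directions, Insig1 up and Insig2 down, with no overlap between mock and Hras arrays in either. Mvk fell by less, with a difference of -0.29 ± 0.060, adjusted p = 0.000485. Cell markers moved with Hras as well: 6 of 6 fibroblast and 6 of 6 melanocyte markers were lower, with summed levels of 5037 to 5614 and 15059 to 15978 in mock and 1648 to 1786 and 6670 to 7654 in Hras arrays. Of 8 differentiation markers 5 were lower and 1 higher, and their sum was 47361 to 47858 in mock and 18236 to 20862 in Hras arrays. Of 5 sebocyte markers Krt79 was higher, and the sum was 858 to 882 in mock and 1725 to 1930 in Hras arrays. Of 6 leukocyte markers 0 rose and 1 fell, with sums of 1330 to 1440 and 1108 to 1262. What part these markers had in the result was not tested.

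In null cells, too, most members rose with Hras. With DMSO 26 rose and 5 fell, where 20.2% of all genes rose and 20.5% fell. Cyp51 (1.08 ± 0.060, adjusted p = 2.39e-12), Dhcr7 (1.06 ± 0.063, adjusted p = 9.14e-12), Insig1 (1.06 ± 0.061, adjusted p = 4.45e-12) and Lss (1.02 ± 0.061, adjusted p = 8.47e-12) rose about 2-fold (2.02 to 2.12). Me1 (-0.83 ± 0.047, adjusted p = 3.99e-12), Insig2 (-0.69 ± 0.068, adjusted p = 2.55e-08), Mvk (-0.37 ± 0.060, adjusted p = 2.11e-05), Scap (-0.22 ± 0.044, adjusted p = 0.000254) and Acss2 (-0.33 ± 0.10, adjusted p = 0.0105) fell. Acss2 lost the call without null mock DMSO array 3 (0.0538) or null Hras DMSO array 3 (adjusted p = 0.109). Calls were also lost for Hmgcs1 without null mock DMSO array 3 (adjusted p = 0.0686) and Hsd17b7 without null mock DMSO array 3 or null Hras DMSO array 2 (adjusted p = 0.0586 to 0.13). Melanocyte markers were lower for 6 of 6 (summed levels of 12404 to 12801 and 6629 to 7291 in mock and Hras arrays) and fibroblast markers for 3 of 6, with 1 higher (2982 to 3074 and 1768 to 1976). Of 8 differentiation markers 5 were lower and 2 higher (45060 to 47473 and 19981 to 22771). Of 5 sebocyte markers Krt79 and Scd3 were higher (887 to 950 and 1172 to 1425), and of 6 leukocyte markers Lyz2 was lower and Csf1r higher (1631 to 1746 and 1276 to 1495), and their part in the result was not tested.

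The Hras effect in DMSO differed between the genotypes for 14 members. It was lower in null cells for 11 (8.41% of all genes) and higher for 3 (8.35%). Fads2 differed by -1.09 ± 0.11, adjusted p = 7.88e-07: its rise was 1.81 in wild-type and 0.72 in null cells. Its null mock arrays started higher and its null Hras arrays ended lower than the wild-type ones. Dhcr7 (-0.69 ± 0.090, adjusted p = 1.36e-05), Fads1 (-0.61 ± 0.13, adjusted p = 0.002), Tm7sf2 (-0.52 ± 0.14, adjusted p = 0.00968), Scd1 (-0.49 ± 0.077, adjusted p = 0.000115) and Scd2 (-0.34 ± 0.062, adjusted p = 0.000457) had a lower effect in null cells too, and so did Nsdhl and Srebf1 (-0.34 ± 0.083, adjusted p = 0.00654). Dhcr7 differed from Fads2 in its start: its mock DMSO arrays overlapped between the genotypes (10.11, 10.06 and 10.15 against 10.16, 10.12 and 10.21).

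The 3 members with a higher Hras effect in null cells were Insig1 (0.39 ± 0.086, adjusted p = 0.00261), Cyp51 (0.32 ± 0.084, adjusted p = 0.00991) and Me1 (0.30 ± 0.067, adjusted p = 0.00302), where for Me1 this means a smaller fall. The call for Me1 was lost with the mean of both probe sets (adjusted p = 0.268). Srebf2 (-0.22 ± 0.064, adjusted p = 0.0217), Acly (-0.30 ± 0.085, adjusted p = 0.0172) and Acss2 (-0.44 ± 0.14, adjusted p = 0.0406) passed with a lower effect. Srebf2 lost the call without null mock DMSO array 3 (0.0606), wild-type Hras DMSO array 2 (0.065) or null Hras DMSO array 3 (0.0621). Acly lost it without wild-type mock DMSO array 2 (0.0518) or wild-type Hras DMSO array 1 (0.0597). Acss2 lost it without wild-type mock DMSO array 2 or 3, null mock DMSO array 1 or 3, wild-type Hras DMSO array 1 or 2 or null Hras DMSO array 2 or 3 (adjusted p = 0.0583 to 0.131). Fibroblast markers moved with this difference, higher for 5 of 6, and so did differentiation markers, higher for 5 of 8. Their part in the result was not tested.

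**Figure D5:**
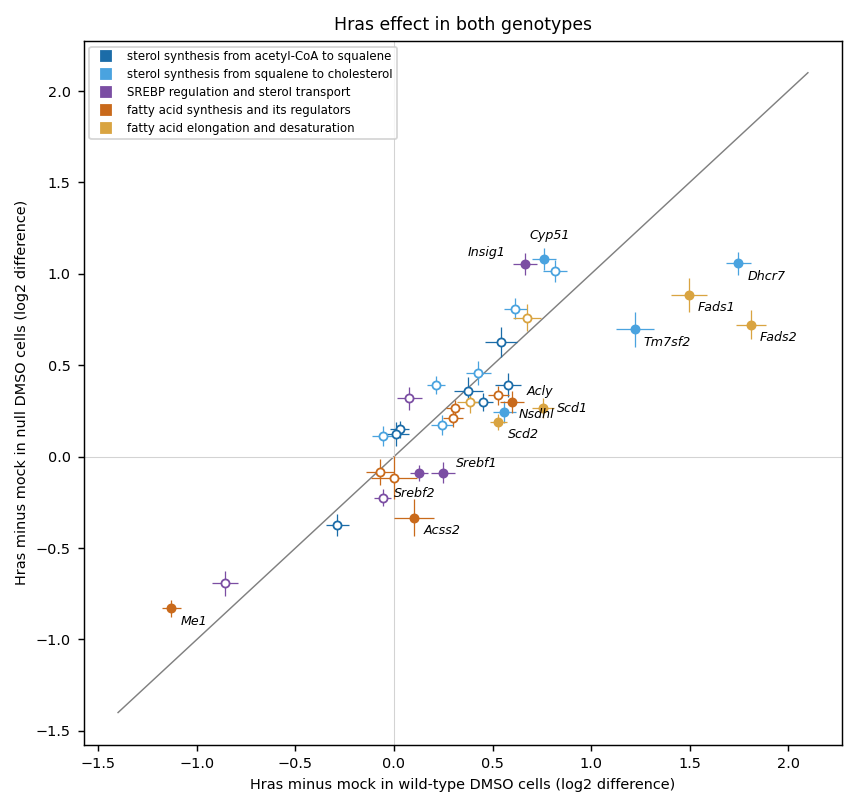
Hras effect on each of the 37 members in DMSO cells, wild-type on the x axis and null on the y axis, as log2 differences with standard errors; the line marks equal effects, and filled, named points differed between the genotypes at a limma adjusted p under 0.05. Fads2, Fads1, Dhcr7 and Tm7sf2 lie well below the line, and Insig1 and Cyp51 above it.

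The Hras effect was also read among cells that all had GW0742. In wild-type cells 18 members rose and 6 fell, where 17.7% of all genes rose and 17.5% fell. Dhcr7 (1.67 ± 0.063, adjusted p = 7.31e-15) and Fads2 (1.45 ± 0.078, adjusted p = 2.04e-12) again led, and the members that fell were Me1 (-0.62 ± 0.047, adjusted p = 5.54e-10), Insig2, Mvk, Hmgcs1, Ebp and Scap. Hmgcs1 read 11.59, 11.61 and 11.59 in mock and 11.39, 11.44 and 11.45 in Hras arrays with GW0742, a difference of -0.17 ± 0.046, adjusted p = 0.00605. In null cells 15 rose and 7 fell, where 21% of all genes rose and 20.7% fell. There the 7 that fell were Me1 (-0.75 ± 0.047, adjusted p = 2.12e-11), Insig2 (-0.56 ± 0.068, adjusted p = 5.3e-07), Mvk, Scap, Srebf2 (-0.33 ± 0.045, adjusted p = 3.6e-06), Srebf1 (-0.28 ± 0.059, adjusted p = 0.000389) and Acss2. Both SREBP genes were thus lower in null Hras GW0742 arrays than in null mock GW0742 arrays, with Srebf2 at 11.44, 11.33 and 11.37 in the first and 11.71, 11.68 and 11.72 in the second. Whichever array was left out, 21 of 24 calls were kept in wild-type and 19 of 22 in null cells. Among the calls lost without 1 array were those for Scap in wild-type cells (adjusted p = 0.0572 without wild-type mock GW0742 array 2 and 0.108 without wild-type Hras GW0742 array 2) and for Acss2 in null cells (0.0731 without null mock GW0742 array 3 and 0.0576 without null Hras GW0742 array 3). In wild-type cells 6 of 6 fibroblast markers (4567 to 5220 and 1666 to 1823 in mock and Hras arrays) and 6 of 6 melanocyte markers (13611 to 14276 and 7198 to 8015) were lower, and 5 of 8 differentiation markers were lower with 2 higher (47054 to 48410 and 25113 to 26790). In null cells 4 of 6 fibroblast markers were lower with 1 higher (3116 to 3264 and 1729 to 1828), 6 of 6 melanocyte markers were lower (12272 to 12635 and 8430 to 10581), and 5 of 8 differentiation markers were lower with 3 higher (43130 to 46248 and 25786 to 29528). Sebocyte sums were 935 to 966 and 1785 to 2068 in wild-type and 897 to 978 and 1215 to 1436 in null cells. Their part in these results was not tested.

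Among other genes of the pathway, the liver X receptor (LXR) targets did not move as a block. LXR is the nuclear receptor that senses surplus sterol. The 4 genes measured were Nr1h3, an LXR itself, and Abca1, Abcg1 and Mylip. Abca1, which exports cholesterol, rose with GW0742 in wild-type mock cells (1.40 ± 0.068, adjusted p = 8.38e-12) and in wild-type Hras cells (1.55 ± 0.068, adjusted p = 1.45e-12), and its difference between the genotypes was -1.57 ± 0.096, adjusted p = 8.36e-10 in mock cells. Abca1 read 9.23, 9.25 and 9.32 with DMSO and 10.60, 10.77 and 10.62 with GW0742 in wild-type mock cells. Abcg1, another exporter, differed by -0.21 ± 0.083, adjusted p = 0.233 there, and Mylip, whose product marks a lipoprotein receptor for breakdown, by -0.23 ± 0.075, adjusted p = 0.128. With Hras in wild-type DMSO cells Mylip fell (-1.34 ± 0.075, adjusted p = 2.92e-12) and Abcg1 rose (0.45 ± 0.083, adjusted p = 0.000127).

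Of the SREBP processing machinery 4 genes were measured: Mbtps1, the first protease that cuts SREBPs, and Rnf139, Erlin1 and Erlin2, which act in the breakdown of sterol-regulated proteins. By limma 0 of the 4 passed with GW0742 in any of the 4 backgrounds (at an unadjusted p under 0.05 there was 1 gene in each background but null mock, which had 0), and Erlin1 differed by 0.19 ± 0.087, adjusted p = 0.331 in wild-type mock cells. With Hras in wild-type DMSO cells Mbtps1 rose (0.27 ± 0.054, adjusted p = 0.000278) and Erlin1 fell (-0.50 ± 0.087, adjusted p = 7.33e-05). In null cells Erlin1 differed by 0.17 ± 0.087, adjusted p = 0.126, and the difference between the genotypes was 0.67 ± 0.12, adjusted p = 0.000525.

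Of 6 other sterol handling genes, 2 rose and 1 fell with GW0742 in wild-type mock cells, where 1.25% of all genes rose and 1.61% fell. Tmem97, a regulator of cholesterol traffic, rose by 0.36 ± 0.064, adjusted p = 0.00168 and Rdh11, a retinal reductase, by 0.35 ± 0.068, adjusted p = 0.00437. Npc1, which moves cholesterol out of lysosomes, fell (-0.17 ± 0.043, adjusted p = 0.0291). With Hras in DMSO cells 5 of 6 rose and 0 fell in either genotype. Of all genes 18.4% rose and 19% fell in wild-type, and 20.2% rose and 20.5% fell in null cells. Tmem97 rose by 0.66 ± 0.064 in wild-type and by 0.86 ± 0.064 in null cells, and Npc2, the partner of Npc1, by 0.33 ± 0.050 and 0.31 ± 0.050.

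Of 14 other genes of fatty acid and glycerolipid synthesis, 2 rose with GW0742 in wild-type mock cells, where 1.25% of all genes rose. They were the elongase Elovl1 (0.33 ± 0.043, adjusted p = 6.27e-05) and Hsd17b12, a reductase of elongation (0.35 ± 0.053, adjusted p = 0.000371). In wild-type Hras cells 4 rose, where 4.46% of all genes rose. These were Dgat2, which makes triglyceride (0.90 ± 0.12, adjusted p = 3.52e-05), Elovl1 (0.39 ± 0.043, adjusted p = 2.19e-06), Elovl4 (0.40 ± 0.061, adjusted p = 0.00012) and Agpat2, which makes phosphatidic acid (0.23 ± 0.062, adjusted p = 0.0254). Dgat2 read 9.95, 10.24 and 10.60 with DMSO and 11.15, 11.20 and 11.16 with GW0742 in wild-type Hras cells, and in mock cells it differed by -0.015 ± 0.12, adjusted p = 0.984. The difference of the GW0742 effect on Dgat2 between Hras and mock cells was 0.92 ± 0.17, adjusted p = 0.00441. With Hras in wild-type DMSO cells 5 of 14 rose and 5 fell, where 18.4% of all genes rose and 19% fell. Agpat2 (1.31 ± 0.062, adjusted p = 2.05e-13) and Hsd17b12 (0.89 ± 0.053, adjusted p = 9.51e-12) were among those that rose. Dgat2 (-1.29 ± 0.12, adjusted p = 1.72e-08) and Elovl7 (-0.96 ± 0.062, adjusted p = 2.81e-11) were among those that fell.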

How the data were processed

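Total RNA of 24 samples was hybridised to Affymetrix arrays (Mouse Gene 1.0 ST), 1 array a sample. The deposited values are log2 expression, normalized by the authors with RMA per the submitters' processing notes; no array was dropped or imputed. Probe sets were named from the platform annotation: of 34760, 21640 had 1 symbol, 1321 several and 11799 none listed, and 21553 matched RefSeq (GRCm38.p6). For each of 19937 genes the probe set with the highest mean was used (954 genes had several). Means of the 8 groups were fitted over all 24 arrays by lmFit and moderated by eBayes (limma 3.58.1, R 4.3.3), which left 16 residual degrees of freedom plus 4.43 from the prior. P-values had Benjamini-Hochberg adjustment over all genes within each of 16 comparisons and a threshold of 0.05. The fit was tested on simulated data. Differences are null minus wild-type, Hras minus mock and GW0742 minus DMSO, and intervals are 95% intervals.

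The members, the other pathway lists and the marker lists were chosen with earlier results of these data known. Any member could be named, and genes of other lists where they passed or where a count needed a name. Summed marker levels are sums of 2 to the power of the log2 value. Promoter motifs were searched on both strands of RefSeq windows. Some genes are not reported here.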

Additional observations from a re-analysis of the deposited data

Results flagged for a closer look

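The GW0742 and Hras effects were compared between genotypes or between Hras and mock cells by the test of the difference itself, in limma with p-values adjusted over all genes. The values below are log2 differences of effects, and those named passed at an adjusted p under 0.05.

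The GW0742 effect in mock cells was different in null and wild-type cells for 15 members. In each of them the effect in null cells was the lower one: Hmgcs1 (-0.37), Pmvk (-0.46), Mvd (-0.53), Idi1 (-0.74), Fdft1 (-0.33), Sqle (-0.32), Lss (-0.62), Cyp51 (-0.61), Msmo1 (-0.50), Nsdhl (-0.38), Hsd17b7 (-0.53), Insig1 (-0.87), Stard4 (-0.48), Elovl6 (-0.54) and Scd1 (-0.55). Among Hras cells 11 members had a lower GW0742 effect in the null genotype: Pmvk (-0.37), Mvd (-0.61), Lss (-0.56), Cyp51 (-0.38), Hsd17b7 (-0.42), Dhcr7 (-0.41), Insig1 (-0.70), Stard4 (-0.36), Me1 (-0.58), Elovl6 (-0.41) and Scd1 (-0.34).

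Within wild-type cells, the GW0742 effect differed between Hras and mock cells for 10 members, where a negative value means a lower effect with Hras: Idi1 (-0.69), Fdft1 (-0.35), Lss (-0.33), Cyp51 (-0.48), Msmo1 (-0.37), Insig1 (-0.45), Me1 (0.51), Fasn (-0.29), Elovl6 (-0.48) and Scd1 (-0.48). Between the genotypes, the Hras effect in DMSO cells differed for 14 members, where a negative value means a lower effect in null cells: Cyp51 (0.32), Tm7sf2 (-0.52), Nsdhl (-0.32), Dhcr7 (-0.69), Srebf1 (-0.34), Srebf2 (-0.22), Insig1 (0.39), Acly (-0.30), Acss2 (-0.44), Me1 (0.30), Scd1 (-0.49), Scd2 (-0.34), Fads1 (-0.61) and Fads2 (-1.09).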

How the results depend on the processing

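Each member's calls were recomputed with arrays centred on their medians, without the dimmest 40% of genes, with the mean of all probe sets of a gene, with only the arrays compared, with the replicate number as a block, with a trended and robust variance, without the null Hras GW0742 group, and without each array in turn. Among recomputed calls of members that had passed, 3406 passed again in the same direction, 314 no longer passed and none reversed. The number of members that passed was 23 for GW0742 in wild-type mock cells and 15 to 20 with 1 array left out. It was 14 for GW0742 in null Hras cells, 0 with only the arrays compared, and 4 to 19 with 1 array left out. For genotype in Hras GW0742 cells it was 17, and 8 with only the arrays compared. For the contrast between genotypes in how Hras cells responded to GW0742 it was 11, 5 with only the arrays compared, and 5 to 11 with 1 array left out. Fitting only the arrays compared leaves fewer arrays to estimate the spread. The comparisons with 0, 8 and 5 members in that setting also all held the null Hras GW0742 group. Its median standard deviation over all genes was 0.122, against 0.0647 to 0.0798 in the other groups. What part either had in the lower counts was not tested. In the other comparisons the counts stayed within 1.5 times the main one under all these settings. Among them, Hras in null GW0742 cells, which also holds the null Hras GW0742 group, gave 22, and 20 with only the arrays compared. For GW0742 in wild-type Hras cells, where 7 rose and 0 fell, 8 rose and 2 fell without the dimmest 40% of genes. The same counts came with a trended and robust variance and without the null Hras GW0742 group. With the replicate block 7 rose and 1 fell.

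With the replicate number as a block, 22 members passed for GW0742 in wild-type mock cells, 8 in wild-type Hras, 0 in null mock and 15 in null Hras cells. For Hras the block gave 29 and 23 in wild-type and 31 and 24 in null cells (DMSO, then GW0742), for genotype 19, 15, 19 and 18 (mock DMSO, mock GW0742, Hras DMSO, Hras GW0742), and for the 4 differences of effects 15, 9, 11 and 15. Over all genes, residual correlations of same-numbered arrays ran from -0.287 to 0.253 with a median of 0.015, and 12 of 84 were over 0.1. Those of differently numbered arrays ran from -0.319 to 0.323 with a median of -0.0082, and 17 of 168 were over 0.1. Pairs within and between genotypes were pooled, so this cannot tell whether numbers pair arrays within a genotype. In the members' mean, arrays kept the same order by number with DMSO and GW0742, except in null Hras cells. No label says that a number marks a shared animal or day, so the numbers were not taken to pair the samples. The replicate block was shared by all groups and both genotypes, so a pairing within a genotype was not fitted. Arrays have no read depth, and their number limits the precision.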
